A study of Mus musculus with 21 samples.

Results

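Macrophages of obese adipose tissue that carry CD11c on their surface were compared with those that do not, across all expressed genes. The libraries were chosen by their labels: 3 hold macrophages positive for MHC class II and for CD11c, and 3 hold macrophages positive for MHC class II and negative for CD11c, so 6 of the study's 21 RNA-seq libraries were compared. Both populations come from male C57BL/6 mice kept on a high fat diet for 16 weeks, and were sorted by flow cytometry from collagenase-digested adipose tissue. The fat depot and the age of the mice are not given in the sources used here. Another 6 obese libraries, 3 of MHCII-low macrophages and 3 of monocyte-derived cells, entered the fit to estimate the spread and serve as reference levels. The 9 libraries of lean mice on the normal diet entered only 1 alternative fit. They hold no CD11c-positive population, so the effect of the diet on CD11c-positive cells was not measured. Libraries carry the numbers 1 to 3 within each population and were compared in pairs of equal number. The labels do not say whether a number stands for 1 mouse or a pool, so p-values measure the spread between these samples.

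CD11c is integrin alpha X, the product of Itgax, which pairs with the beta 2 integrin on myeloid cells. In obese fat, CD11c-positive macrophages are known to gather around dying adipocytes, where they take up lipid and cell debris and break it down in lysosomes. Macrophages of this kind, described as lipid-associated, are marked by the lipid receptor Trem2, the tetraspanin Cd9, lipid-binding proteins and lysosomal enzymes. Resident macrophages that lie along vessels carry instead the hyaluronan receptor Lyve1, the mannose receptor Mrc1 and scavenger receptors such as Cd163.

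The 6 libraries held 26648301 to 31965501 counts, of which 80.7% to 84.0% lay on protein-coding genes and 1.19% to 1.86% on mitochondrial genes. Log2 levels of libraries of the same obese population correlated across genes at 0.974 or more. The number that a library carries moved many genes together. Levels are in CPM, the counts of a gene per 1000000 counts of the scaled library. Of 8523 genes whose mean reached 10 CPM in either population, the library of number 1 was the lowest of its 3, or the highest of its 3, in both populations at 5029 genes (59.0%). The same was found at 2829 genes (33.2%) for number 2 and at 2228 genes (26.1%) for number 3. Part of such shares arises without any link between equal numbers, and that part was not estimated. Comparing within numbers removes what libraries of equal number share.

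Itgax, the gene of the sort, was read first as a check of the labels. It stood at 58.6, 95.2 and 96.0 CPM in CD11c-negative libraries 1 to 3 and at 469, 640.2 and 618 CPM in CD11c-positive libraries 1 to 3 (means 83.3 ± 21.4 and 576 ± 93.3 CPM, SD, n = 3). Every CD11c-positive library lay above every CD11c-negative one, as labelled, but Itgax RNA was present in the CD11c-negative sort. In MHCII-low macrophages it was at 43.9 ± 19.6 CPM and in monocyte-derived cells at 340.4 ± 29.7 CPM. The macrophage label was read in 18 genes of macrophage identity, of which 3 were called higher, 2 lower and 13 not called. In the 6 compared libraries fitted alone 4 were higher and 9 lower, and with number 1 left out of all populations 5 were lower. Adgre1, which encodes F4/80, was at 956 ± 145 and 1020 ± 65.4 CPM in CD11c-negative and CD11c-positive macrophages. Csf1r, the receptor for the growth factor CSF1, was at 1848 ± 60.5 and 1590 ± 48.5 CPM, and lysozyme, Lyz2, at 3995 ± 348 and 4364 ± 262 CPM. None of these 3 genes was called (adjusted p = 0.488, 0.101 and 0.273, edgeR quasi-likelihood test), and all were abundant in both populations. The called rises of the list were Cd68 (596 ± 88.3 to 843 ± 133 CPM), Itgam and Tyrobp, and Cx3cr1 was among the falls. Tyrobp was not called without the replicate block or with number 3 left out of all populations (adjusted p = 0.0556 and 0.0575). H2-Ab1, which encodes an MHC class II beta chain, was at 2532 ± 327 and 1671 ± 473 CPM against 341 ± 87.8 CPM in MHCII-low macrophages.

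Of 20081 genes tested, 2856 (14.2%) were called higher and 2392 (11.9%) lower in CD11c-positive macrophages at an adjusted p under 0.05, together 5248 genes or 26.1%. Most differences were moderate: 283 called genes were higher and 506 lower by at least 2-fold, and 30 higher and 50 lower by at least 4-fold. The 3 and 3 libraries did not overlap at 7629 genes (38% of those tested), and 4459 genes were both called and free of overlap. In the higher population the mean reached 10 CPM at 2147 of the called rises and 1251 of the called falls. The count rests on the pairing and on single libraries. Without the replicate block 2681 genes were called, all of them among the 5248, and 801 when the lean libraries were added and the block left out. Leaving out 1 of the 6 libraries gave a count of 2750 (without CD11c-negative number 2) to 3526 (without CD11c-positive number 1). With a number left out of all 4 obese populations it was 5659, 1756 and 1108 for numbers 1, 2 and 3. Of 130 genes named by a fixed rule 129 were called. Under every alternative 60 of these kept the call, 69 lost it under at least 1, and 0 changed direction. The fit with the lean libraries and no block ended the call of 60 genes, and is not named again below for single genes.

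**Figure D1:**
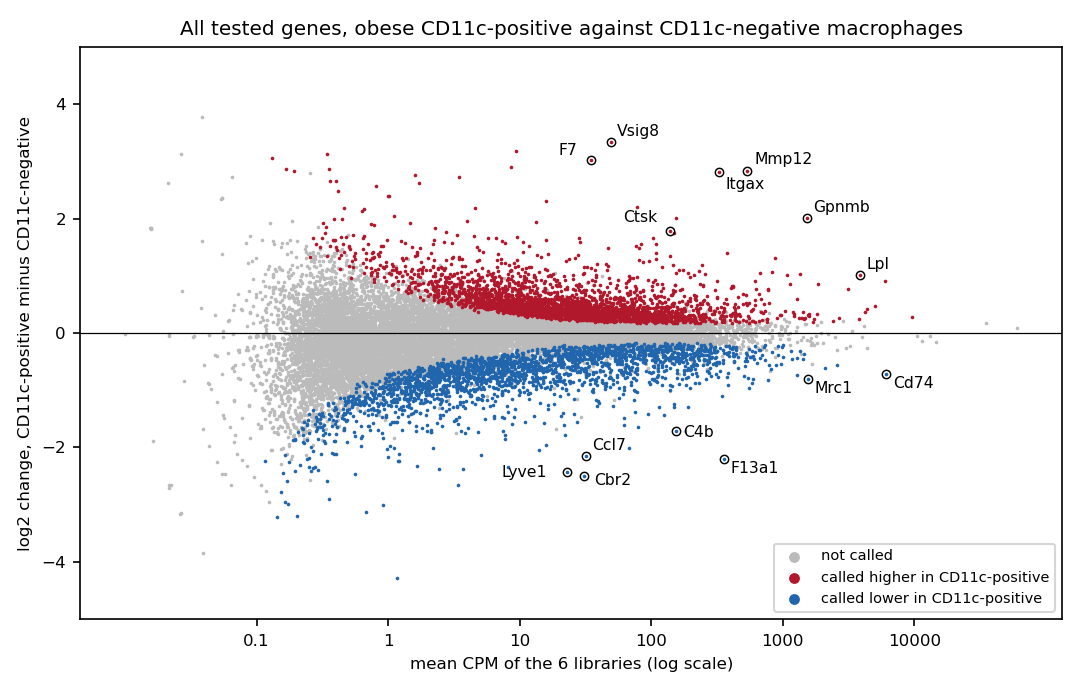
Change of each tested gene (vertical axis, log2, CD11c-positive minus CD11c-negative) against its mean level in the 6 libraries (horizontal axis, CPM on a log scale), with called genes in red (2856 higher) and blue (2392 lower) and 14 genes circled. Mmp12, Itgax and Gpnmb combine large rises with high levels, and F13a1 combines a large fall with a high level.

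The kinds of transcript called differed by direction. Of 14059 protein-coding genes, 2729 (19.4%) were called higher and 1450 (10.3%) lower, with a median log2 change of 0.07. A joint class held entries of the types TEC, sense-intronic, antisense, lincRNA, processed transcript and sense-overlapping, Ifi30 among them. Of its 3480 tested entries, 51 (1.47%) were called higher and 715 (20.5%) lower, with a median of -0.36. Over all tested genes the shares were 14.2% and 11.9%. The joint class summed to 62810 ± 6101 CPM in the CD11c-negative and 61490 ± 7545 CPM in the CD11c-positive population. Most of it was lincRNA, at 51320 ± 5522 and 53050 ± 7321 CPM. Within this class, transcripts of the type TEC, which await experimental evidence in the annotation, summed to 6155 ± 340 CPM in the CD11c-negative population and to 4195 ± 190 CPM in the CD11c-positive one. Sense-intronic transcripts, which lie in introns of other genes, summed to 582 ± 43.5 and 419 ± 18.7 CPM. The part of intronic RNA in the other results was not tested.

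Of the called genes with at least 10 CPM, the same direction in each pair and no overlap, the 15 largest rises were taken. Itgax is one of them (log2 2.81), as the sort fixed. Vsig8, an immunoglobulin-domain membrane protein, had the largest rise of the 15: it stood at 5.11, 11.5 and 11.4 CPM in CD11c-negative libraries 1 to 3 and at 82.6, 91.4 and 92.4 CPM in CD11c-positive ones (log2 3.35, SE 0.27, adjusted p = 0.000105). Its populations lay far apart. Mmp12, the macrophage elastase on chromosome 9 at 7344381 to 7369499 (GRCm38), went from 80.0, 172 and 154 CPM to 635, 1182 and 1013 CPM (log2 2.83, SE 0.12, adjusted p = 1.49e-07). Library 1 was lowest in both populations, and the rise was present in each pair. F7, coagulation factor VII, rose from 7.70 ± 0.627 to 62.5 ± 5.11 CPM (log2 3.02), and its neighbour F10, factor X, from 7.70 ± 1.32 to 24.0 ± 4.75 CPM (log2 1.63). The 2 genes lie side by side on the plus strand, F7 on chromosome 8 at 13026034 to 13035809 and F10 on chromosome 8 at 13037308 to 13056676, and share no exon with another gene.

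Gpnmb, a lysosome-linked glycoprotein of lipid-laden macrophages, was the most abundant of these rises. It stood at 406, 755 and 706 CPM in CD11c-negative libraries 1 to 3 and at 1980, 2711 and 2589 CPM in CD11c-positive ones (log2 2.02, SE 0.17, adjusted p = 5.1e-05). All 3 CD11c-positive libraries lay above all CD11c-negative ones. Dcstamp, needed for the fusion of macrophages and osteoclasts, rose from 5.30 ± 0.387 to 26.3 ± 5.58 CPM, and Ctsk, the collagen-cutting cathepsin K, from 63.4 ± 21.4 to 213 ± 51.2 CPM. Ksr2, a scaffold of the RAS pathway, rose from 1.97 ± 1.09 to 16.9 ± 2.12 CPM, and Tenm4, a teneurin adhesion protein, from 13.5 ± 0.353 to 42.9 ± 4.12 CPM. Gabbr2, a GABA receptor subunit, rose from 4.67 ± 2.14 to 14.4 ± 2.98 CPM and Map2, a microtubule protein, from 5.77 ± 3.33 to 20.9 ± 10.03 CPM. Others are Zranb3, a DNA repair helicase (28.1 to 127 CPM), Serpinb9b, a protease inhibitor of a family with similar members (1.89 to 15.3 CPM), and the ubiquitin ligase Rnf128 (70.05 to 226 CPM). Without the replicate block Map2 and Rnf128 were not called (adjusted p = 0.136 and 0.0864).

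Of the 15 largest falls, 6 belong to the list of resident perivascular macrophage genes described below, Cbr2, Lyve1, F13a1, Cd209f, Ccl8 and Ccl24. Cbr2, a carbonyl reductase, went from 80.3, 36.7 and 40.8 CPM in CD11c-negative libraries 1 to 3 to 9.68, 8.37 and 8.28 CPM in CD11c-positive ones (log2 -2.50, SE 0.39, adjusted p = 0.00392). Library 1 was highest in both populations, and the populations did not overlap. Lyve1 went from 50.9, 32.9 and 32.9 CPM to 6.30, 7.64 and 7.25 CPM (log2 -2.42, SE 0.43, adjusted p = 0.00679). F13a1, coagulation factor XIII, was the most abundant of these genes and fell from 592 ± 224 to 126 ± 33.8 CPM (log2 -2.20). Tlr5, the flagellin receptor, fell from 13.6 ± 3.45 to 2.64 ± 0.299 CPM, and Lifr, the receptor for leukemia inhibitory factor, from 120.5 ± 20.3 to 38.8 ± 6.17 CPM. The lectins Cd209f (22.8 to 5.39 CPM) and Mgl2 (108 to 27.3 CPM) and the sialic acid receptors Siglece (12.1 to 3.33 CPM) and Cd33 (93.2 to 30.1 CPM) were also lower. Cmah, which makes a form of sialic acid, fell from 33.0 ± 2.71 to 10.8 ± 1.71 CPM, and Rasgrp4, a RAS activator with 18.2% of its exon length shared with other genes, from 25.2 ± 4.78 to 6.56 ± 1.89 CPM. The chemokines Ccl7, Ccl8 and Ccl24 and the complement gene C4b complete the 15. Cbr2, Lyve1, Ccl7 and Ccl8 were not called with number 2 left out of all populations (adjusted p = 0.0752, 0.0996, 0.0506 and 0.0517). Cmah was not called without CD11c-positive number 1 or with number 3 left out of all populations (adjusted p = 0.0582 and 0.0966).

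**Figure D2:**
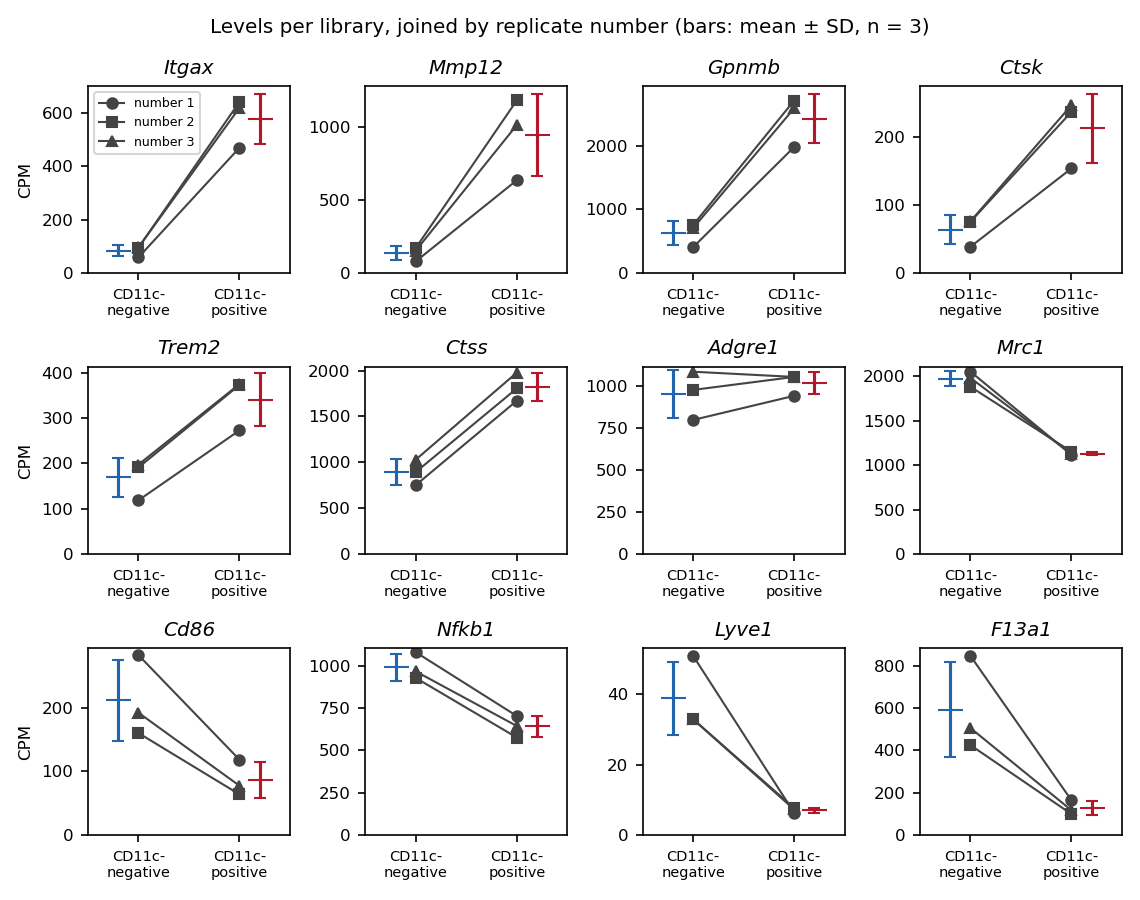
Levels in CPM (vertical axes, from 0) of 12 genes in the CD11c-negative and CD11c-positive library of each number, joined by a line, with the mean ± SD of 3 libraries per population. Mmp12, Gpnmb, Trem2 and Ctss rise and Mrc1, Cd86, Lyve1 and F13a1 fall in each pair.

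Lipid-associated macrophage genes were higher as a group. Of 20 such genes, 18 rose, 0 fell and 2 were not called, at a median log2 change of 0.89 against -0.01 over all tested genes. Trem2, the lipid receptor, stood at 118, 191 and 197 CPM in CD11c-negative libraries 1 to 3 and at 273, 373 and 375 CPM in CD11c-positive ones (log2 1.03, SE 0.08, adjusted p = 3.88e-06). The populations did not overlap, and library 1 was the lowest of each. Cd9 rose from 149 ± 43.6 to 334 ± 64.9 CPM, with 10.7% of its exons shared with other genes. Lipoprotein lipase, Lpl, which frees fatty acids from lipoproteins, rose from 2587 ± 545 to 5168 ± 592 CPM, and the fatty acid transporter Cd36 from 2321 ± 209 to 3977 ± 394 CPM. Osteopontin, Spp1, rose from 51.2 ± 8.36 to 122 ± 26.8 CPM, the lectin Lgals3 from 1325 ± 82.1 to 2398 ± 109 CPM, and the acid phosphatase Acp5 from 46.6 ± 1.90 to 91.1 ± 2.77 CPM. The members not called were the lipid carrier Apoe (4847 ± 1311 and 3939 ± 601 CPM) and Cd109 (26.9 and 29.4 CPM). Of the 20, 17 were called higher in CD11c-positive macrophages than in each of the other 3 obese populations. The list was taken from general knowledge of such macrophages with earlier results of these data known.

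Lysosomal genes rose in part. Of 25 hydrolases and membrane proteins, 14 rose, 1 fell and 10 were not called (median log2 0.27). The list shares Ctsb, Ctsl and Lipa with the lipid-associated one. The proteases Ctsk (log2 1.79), Ctsl (503 to 1236 CPM) and Ctsd (721 to 1435 CPM) were among the rises. Psap, the precursor of the saposins that assist lipid breakdown, rose from 4178 ± 289.5 to 7874 ± 387 CPM. Acid lipase, Lipa, which splits cholesteryl esters, rose from 819 ± 186 to 1463 ± 199 CPM, and beta-glucuronidase, Gusb, from 299 ± 28.9 to 528 ± 60.3 CPM. Several membrane proteins were not called: Lamp1 was at 666 and 779 CPM, Lamp2 at 513 and 520.1 CPM, Scarb2 at 202 and 201 CPM and the calcium channel Mcoln1 at 57.1 and 55.1 CPM. The fall was of the protease Ctsh (216 to 180.2 CPM), a call lost without CD11c-positive number 3, CD11c-negative number 2 or 3, number 2 or 3 throughout, or the block (adjusted p up to 0.332 over all alternatives). Exons of Ctsd and Ctsl are shared to 34.4% and 32.9% with other genes, so reads there may be divided. With number 3 left out of all populations 9 of the list rose.

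The vacuolar proton pump, which acidifies lysosomes, showed a similar mix. Of 18 subunits 9 rose, 0 fell and 9 were not called (median log2 0.23). The risen Atp6v0d2 is also in the lipid-associated list. Atp6v0d2, a d subunit of macrophages and osteoclasts, went from 149, 241 and 249 CPM to 459, 596 and 574 CPM in libraries 1 to 3 (log2 1.39, SE 0.14, adjusted p = 8.07e-05). Its widely expressed counterpart Atp6v0d1 was at 124 and 123 CPM and not called. The a subunits Atp6v0a1 (405 ± 66.0 to 642 ± 64.1 CPM) and Atp6v0a2 (38.2 ± 2.17 to 58.5 ± 0.530 CPM) also rose. With number 2 or number 3 left out of all populations 5 of the 18 rose.

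Genes of lipid handling moved in part. Of 22 genes of lipid uptake and lipid droplets, 10 rose and 0 fell (median log2 0.22). Of these rises, Cd36, Fabp4, Fabp5, Lpl and Plin2 are also in the lipid-associated list. Besides Lpl and Cd36 the rises include the oxidised lipoprotein receptor Olr1 (28.9 ± 5.43 to 52.1 ± 13.8 CPM), the droplet protein Plin3 (41.9 ± 1.20 to 63.2 ± 3.43 CPM) and the fatty acid carrier Fabp5 (65.8 ± 14.5 to 123 ± 16.9 CPM). The droplet lipase Pnpla2 rose from 72.7 ± 13.1 to 104 ± 12.1 CPM, a call lost without the replicate block (adjusted p = 0.0939). Fabp5 was not called with number 3 left out of all populations. Of 14 genes that are targets of the sterol receptor LXR or handle sterols and their efflux, 7 rose and 2 fell (median log2 0.32). Soat1, which stores cholesterol as esters, went from 232, 256 and 263 CPM to 379, 383 and 380.2 CPM (log2 0.61, SE 0.07, adjusted p = 6.75e-05). The cholesterol exporter Abca1 was at 1810 and 1756 CPM and was not called. Arl4c, a small GTPase, fell from 239.5 ± 62.0 to 138 ± 23.3 CPM. With number 3 left out of all populations 5 genes of the first list and 1 of the second rose, and without the block 5 and 4.

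Mitochondrial genes rose by small steps. Of 28 genes of oxidative phosphorylation, 23 rose and 0 fell, and the median log2 change was 0.38, with a range from 0.18 to 0.72. Atp5c1, a subunit of ATP synthase, went from 66.2, 66.0 and 71.2 CPM to 88.1, 102 and 96.1 CPM (log2 0.49, SE 0.08, adjusted p = 0.000738). Its libraries did not overlap between populations. Cox5a, a subunit of complex IV, rose from 11.8 ± 2.08 to 19.5 ± 2.56 CPM, Sdhb of complex II from 51.2 ± 1.61 to 69.0 ± 2.39 CPM and Ndufa4 from 16.0 ± 0.258 to 22.5 ± 1.77 CPM. Of 22 genes of fatty acid oxidation, 15 rose and 0 fell (median log2 0.34). Both subunits of the trifunctional protein rose, Hadha from 156 ± 12.99 to 220 ± 9.42 CPM and Hadhb from 57.0 ± 2.37 to 78.3 ± 2.20 CPM, as did the hydratase Echs1 from 16.2 ± 0.865 to 24.6 ± 0.901 CPM. With number 3 left out of all populations 3 genes of each list rose, and Sdhb and Ndufa4 were not called (adjusted p = 0.062 and 0.0857). With number 2 left out 12 and 7 rose, and with 1 of the 6 libraries left out 14 to 19 and 10 to 12. In all 21 libraries without the block 0 and 2 rose. Reads on mitochondrial genes were 1.37%, 1.86% and 1.79% in CD11c-positive and 1.19%, 1.45% and 1.47% in CD11c-negative libraries 1 to 3, and their part in these results was not tested.

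Glycolytic enzymes also rose. Of 24 genes of glycolysis and the hypoxia response, 13 rose and 2 fell (median log2 0.39). Aldolase, Aldoa, rose from 227 ± 52.9 to 379 ± 66.2 CPM, Tpi1 from 49.5 ± 3.30 to 74.1 ± 3.03 CPM, Pgk1 from 65.2 ± 1.76 to 99.4 ± 7.59 CPM and pyruvate kinase, Pkm, from 490.1 ± 10.2 to 732 ± 59.0 CPM. The hypoxia factor Hif1a was at 118 and 106 CPM and not called. The falls were Pfkfb3, a regulator of an upper step (162 to 94.1 CPM), and hexokinase 2, Hk2 (141 to 116 CPM). Pfkfb3 was not called without CD11c-negative number 2 or 3 or with number 2 or 3 left out throughout (adjusted p up to 0.0835 over all alternatives). Hk2 was not called with any 1 of the 6 libraries left out, with number 2 or 3 left out throughout, or without the block (adjusted p up to 0.351 over all alternatives).

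Of 24 genes of cholesterol and fatty acid synthesis, 12 rose and 0 fell (median log2 0.29). Hmgcs1, an early enzyme of the cholesterol pathway, rose from 32.9 ± 2.95 to 52.7 ± 6.40 CPM, and the later enzyme Msmo1 from 27.5 ± 3.92 to 39.7 ± 3.35 CPM. The fatty acid genes Fasn (34.9 and 37.2 CPM) and Scd1 (15.3 and 16.2 CPM) were not called. Without the block 7 rose, with 1 of the 6 libraries left out 5 to 8, and with number 2 or number 3 left out 6 and 3.

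Cell cycle genes had the largest share of calls of the 28 lists. Of 29, 27 rose and 0 fell, and the median log2 change was 0.715. Of these genes 24 were called higher than in each of the other 3 obese populations. Ccnb1, the mitotic cyclin B1, went from 5.84, 5.68 and 4.39 CPM to 10.3, 12.5 and 9.78 CPM (log2 1.04, SE 0.13, adjusted p = 0.000156). The level was low, and the populations did not overlap. Kif20a, a kinesin of cell division, rose from 6.55 ± 0.379 to 14.2 ± 1.94 CPM, with 29.3% of its exons shared with other genes. Rrm2, which makes the building blocks of DNA, rose from 13.2 ± 0.443 to 25.3 ± 2.52 CPM, and Mcm6, of the replicative helicase, from 64.5 ± 1.84 to 98.2 ± 7.54 CPM. Genes of DNA replication and of mitosis both took part. The proliferation marker Mki67 rose from 312 ± 38.7 to 405 ± 47.1 CPM. It was not called with number 2 or 3 of either population, or of all populations, left out, nor when the 6 libraries were fitted alone (adjusted p up to 0.183 over all alternatives). The members not called were Ccnb2 (16.2 and 17.9 CPM) and Ccne2 (5.49 and 6.84 CPM). With number 2 or number 3 left out of all populations 17 and 14 of the 29 rose.

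The promoters of these genes were read for the CCAAT box, a motif that cell cycle promoters are known to hold. In the RefSeq promoter table (GRCm38.p6, 250 bases before to 50 after each start), 22 of the 27 risen cell cycle genes have an entry, and 19 of the 22 (86.4%) hold CCAAT on either strand. Of 11 risen genes of cholesterol and fatty acid synthesis with an entry, 10 (90.9%) hold it. The share was 41.1% of all 27025 genes of the table, 42.1% of 11919 tested genes, 48.0% of 2177 genes called higher and 38.7% of 1282 called lower. The stretch of 120 bases just before the start is shown for 3 named cell cycle genes and 1 of cholesterol synthesis, chosen because their RNAs rose together and the motif lies there. It is written 5′ to 3′ on the strand of the gene, with CCAAT, or ATTGG where the motif is on the other strand, in capitals:
Ccnb1 (chr13:100786487-100786606, minus strand): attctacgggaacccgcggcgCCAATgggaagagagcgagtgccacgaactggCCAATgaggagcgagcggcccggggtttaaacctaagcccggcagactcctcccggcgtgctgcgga
Mcm6 (chr1:128359706-128359825, minus strand): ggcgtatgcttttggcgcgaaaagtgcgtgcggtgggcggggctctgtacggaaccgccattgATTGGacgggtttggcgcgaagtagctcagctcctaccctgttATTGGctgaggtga
Rrm2 (chr12:24708134-24708253, plus strand): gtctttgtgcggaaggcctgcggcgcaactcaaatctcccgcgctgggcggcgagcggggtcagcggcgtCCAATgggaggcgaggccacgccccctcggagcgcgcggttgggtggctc
Msmo1 (chr8:64733579-64733698, minus strand): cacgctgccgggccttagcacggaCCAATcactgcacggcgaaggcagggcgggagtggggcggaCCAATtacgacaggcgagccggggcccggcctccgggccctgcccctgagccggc
The motif begins 99 and 67 bases before the start in Ccnb1, 57 and 14 in Mcm6, 50 in Rrm2, and 96 and 55 in Msmo1. TTTNGCGC, a motif like that of E2F factors, was found on either strand in 4 of the 22 cell cycle promoters (18.2%) and in 3 of 15 risen oxidative phosphorylation genes (20%), against 2.54% of tested genes and 1.57% of all genes. TCACGTGA, a motif of TFEB and MITF, was found in 1 of 11 risen lysosomal genes (9.09%), Ctsd, against 1.94% of tested genes, 1.65% of genes called higher and 2.89% of those called lower. Another 3 motifs searched on both strands were TGANTCA of AP-1, the response element of interferon regulatory factors and GAGGAA of PU.1. They were found in 6.43%, 3.67% and 30.1% of genes called higher and in 8.58%, 4.6% and 32.7% of genes called lower, against 6.86%, 3.85% and 30.9% of tested genes. These matches describe the sequence and show no binding.

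Resident perivascular macrophage genes fell as a group. Of 24, 15 fell, 1 rose and 8 were not called, with a median log2 change of -1.15. Mrc1, which encodes the mannose receptor CD206, stood at 2054, 1884 and 1983 CPM in CD11c-negative libraries 1 to 3 and at 1117, 1152 and 1126 CPM in CD11c-positive ones (log2 -0.80, SE 0.12, adjusted p = 0.000561). The libraries of each population lay close together. Cd163, the receptor for haemoglobin bound to haptoglobin, fell from 183 ± 32.9 to 66.0 ± 5.62 CPM. The lectins Cd209b (6.24 ± 3.10 to 1.17 ± 0.340 CPM) and Cd209d (5.89 ± 3.28 to 0.895 ± 0.130 CPM) fell with Cd209f, although similar Cd209 genes can share reads. The rise was of Cd5l, at 1.55, 9.04 and 6.43 against 2.44, 30.8 and 20.7 CPM. Its libraries overlapped, and its call was lost without number 2 of either population, with number 2 or 3 left out throughout, and without the block (adjusted p = 0.248). Not called were Folr2 (27.7 and 34.7 CPM), Igf1 (499.5 and 427 CPM) and Vsig4 (5.36 and 4.87 CPM).

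Among 27 scavenger and lectin receptors, 13 fell and 3 rose (median log2 -0.66). The falls include Clec4n, the receptor Dectin-2 (11.4 ± 0.837 to 4.70 ± 0.241 CPM), and Clec4a1 (98.3 ± 10.1 to 55.9 ± 7.43 CPM), besides Mgl2, Siglece and the Cd209 genes. Cd36 was the most abundant of the rises, and Clec7a, the receptor Dectin-1, was not called (229.8 and 299.9 CPM). Members shared with lists above include Cd209d among the falls and Cd36 and Msr1 among the rises. Among 23 genes of efferocytosis and complement, 2 rose and 4 fell (median log2 -0.29). Mfge8, a bridge between dying cells and phagocytes, went from 30.4, 59.9 and 58.8 CPM to 104, 167 and 194 CPM (log2 1.66, SE 0.11, adjusted p = 1.66e-06). Library 1 was lowest in both populations. The phagocyte receptors Mertk (84.1 and 83.4 CPM) and Axl (614 and 635 CPM) were not called, nor were the 3 C1q genes. Properdin, Cfp, fell from 246 ± 22.5 to 174 ± 12.7 CPM. C4b, at 217, 288 and 207 against 52.8, 95.3 and 71.3 CPM, did not overlap (log2 -1.72, SE 0.46, adjusted p = 0.0343). Its call was lost with any 1 of the 6 libraries left out, with number 2 or 3 left out throughout, and without the block (adjusted p up to 0.162).

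Of 13 genes of antigen presentation on MHC class II, 6 (46.2%) fell and 2 (15.4%) rose, and the median log2 change was -0.36. The share of rises was near the 14.2% over all tested genes. The risen members encode enzymes that prepare peptides. Ctss, cathepsin S, went from 752, 894 and 1029 CPM to 1671, 1805 and 1977 CPM (log2 1.03, SE 0.07, adjusted p = 2.68e-06), and Ifi30, a thiol reductase, rose from 156 ± 5.45 to 239.5 ± 14.4 CPM. Cd74, the invariant chain, went from 8193, 6610 and 8018 CPM to 5689, 3573 and 4753 CPM (log2 -0.71, SE 0.14, adjusted p = 0.00333). Its libraries did not overlap. H2-Ab1 stood at 2719, 2154 and 2724 CPM against 2156, 1211 and 1646 CPM (log2 -0.61, SE 0.18, adjusted p = 0.0302), lower in each pair, with overlapping libraries. The call of Cd74 was lost with number 2 or 3 left out of all populations (adjusted p = 0.0624 and 0.054). That of H2-Ab1 was lost without the block, without any 1 library except CD11c-positive number 1, and with number 2 or 3 left out throughout (adjusted p up to 0.182). With 1 of the 6 libraries left out 2 to 8 of the list fell, and with number 2 or 3 left out 1 and 0. Both populations were sorted as positive for MHC class II, and the part of that gate in these levels was not tested.

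Of 15 costimulatory and checkpoint ligands for T cells, 7 fell and 2 rose (median log2 -0.24). Cd86, a ligand of CD28, went from 282, 160 and 192 CPM to 118, 63.8 and 77.3 CPM (log2 -1.30, SE 0.11, adjusted p = 1.15e-05). Library 1 was highest in both populations, and the populations did not overlap. Its relative Cd80 was at 22.9 ± 7.82 and 13.03 ± 4.21 CPM, with overlapping libraries, and was not called without the block (adjusted p = 0.13). Tnfsf14, known as LIGHT, fell from 15.9 ± 3.48 to 7.74 ± 1.54 CPM, and Tnfsf4, the ligand of OX40, rose from 0.986 ± 0.168 to 3.55 ± 0.656 CPM. The checkpoint ligand Cd274, or PD-L1, was at 36.6 and 34.2 CPM and Cd40 at 45.0 and 35.2 CPM, neither of them called. With any single library left out, 4 to 6 fell, without the block 4, and with number 3 left out of all populations 3.

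Of 27 inflammatory cytokine and NF-kappaB genes, 10 fell and 2 rose (median log2 -0.26). Nfkb1, a subunit of NF-kappaB, stood at 1079, 927 and 966 CPM in CD11c-negative libraries 1 to 3 and at 703, 576 and 644 CPM in CD11c-positive ones (log2 -0.63, SE 0.07, adjusted p = 4.89e-05). The populations did not overlap. Nfkb2 fell from 317 ± 36.9 to 226 ± 41.4 CPM, the inflammatory caspase Casp4 from 144 ± 18.4 to 101 ± 6.36 CPM, and oncostatin M, Osm, from 55.2 ± 17.3 to 23.6 ± 2.74 CPM. Of the classical cytokines, Il6 was called lower, while Tnf (119.8 and 90.0 CPM) and Il1b (166 and 193 CPM) were not called. The nitric oxide synthase Nos2 (1.14 and 1.82 CPM) was not called either. Arginase 1, Arg1, rose from 4.97 ± 0.294 to 9.52 ± 1.82 CPM. Among 26 interferon response genes 2 fell and 0 rose (median log2 -0.19). The falls were Oas2 (31.1 ± 4.45 to 11.7 ± 1.04 CPM) and Mx1 (4.52 ± 0.672 to 2.72 ± 0.196 CPM). Mx1 was not called without CD11c-positive number 1, CD11c-negative number 2 or 3, number 3 throughout, or the block (adjusted p up to 0.131). Of the inflammatory genes 6 to 9 fell with 1 of the 6 libraries left out, 6 without the block, and 5 and 4 with number 2 or 3 left out of all populations.

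Of 23 chemokine ligands, 7 (30.4%) fell and 4 (17.4%) rose (median log2 -0.53), against 11.9% and 14.2% of all tested genes, so the share of rises was near that over all genes. The falls held the monocyte chemoattractants Ccl2 (93.4 ± 44.7 to 31.9 ± 7.45 CPM), Ccl7 (52.1 ± 24.9 to 11.3 ± 2.77 CPM), Ccl8 (34.2 ± 4.81 to 10.1 ± 4.71 CPM) and Ccl12 (4.06 ± 1.49 to 0.785 ± 0.353 CPM). These genes are similar in sequence and can share reads. Ccl24, an eosinophil attractant, went from 17.8, 7.69 and 10.6 CPM to 5.36, 2.45 and 2.67 CPM (log2 -1.78, SE 0.18, adjusted p = 6.32e-05), and Ccl9 from 688, 627 and 623 CPM to 1024, 887 and 869 CPM (log2 0.52, SE 0.09, adjusted p = 0.00186). Both were highest in library 1 of each population and moved in opposite directions. With number 1 left out of all populations 14 fell and 2 rose, and with number 2 left out 3 and 3.

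Among 21 chemoattractant receptors, 6 fell and 3 rose (median log2 -0.18). Ccrl2, a receptor that presents rather than signals, rose from 164 ± 14.8 to 261 ± 24.4 CPM, and P2ry14, a receptor for nucleotide sugars, from 7.53 ± 1.86 to 13 ± 0.325 CPM. The fractalkine receptor Cx3cr1 fell from 37.8 ± 8.74 to 14.1 ± 2.68 CPM. It was not called with number 1 left out of all populations (adjusted p = 0.0706). Ccr2, the receptor for Ccl2, was at 252, 127 and 161 against 137, 68.9 and 83.5 CPM (log2 -0.90, SE 0.25, adjusted p = 0.0294), lower in each pair, with overlapping libraries. Its call was lost without CD11c-positive number 2 or 3, without any 1 CD11c-negative library, with number 3 left out throughout, and without the block (adjusted p up to 0.161).

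The beta 2 partner of CD11c rose with it. Of 18 integrin genes, 6 rose, Itgax included, and 3 fell (median log2 0.28). Itgb2, the beta 2 chain, stood at 566, 560.4 and 605 CPM in CD11c-negative libraries 1 to 3 and at 878, 1001 and 1050 CPM in CD11c-positive ones (log2 0.75, SE 0.07, adjusted p = 2.82e-05). The populations did not overlap. Itgam and Itgad flank Itgax on the plus strand, with Itgam on chromosome 7 at 128062640 to 128118491, Itgax on chromosome 7 at 128129547 to 128150657 and Itgad on chromosome 7 at 128154376 to 128223816. Itgad rose from 1.64 ± 0.597 to 6.25 ± 0.358 CPM and Itgam, or CD11b, from 107 ± 4.52 to 144 ± 3.19 CPM. They share 19.7% and 68.7% of their exon length with other genes, and reads there cannot be told apart. Itgal, which encodes the beta 2 partner CD11a, was at 11.3 and 12.8 CPM and not called.

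Among 22 matrix proteases and inhibitors, 6 rose and 3 fell (median log2 0.09). Mmp12 and Ctsk, given above, had the largest rises of the list. The inhibitor Timp2 was at 735 and 774 CPM and the activator of plasmin Plau at 234 and 248 CPM, neither of them called. When a single library was left out, 3 to 6 rose and 0 to 3 fell, and without the block 3 and 0. Of 25 growth and angiogenic factors, 7 fell and 2 rose (median log2 -0.35). Pdgfa fell from 59.4 ± 9.80 to 30.1 ± 3.39 CPM, with 26.1% of its exons shared with other genes. Csf1, the macrophage growth factor, was at 29.0 ± 7.84 and 21.6 ± 6.22 CPM, and Fgf13 at 5.06 ± 2.03 and 11.5 ± 4.65 CPM, both with overlapping libraries and not called without the block (adjusted p = 0.322 and 0.208). Csf1 was also not called with number 2 or 3 left out throughout (adjusted p = 0.0816 and 0.0708). With 1 of the 6 libraries left out 3 to 6 of the growth factors fell.

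Among 27 genes of iron, heme and antioxidant defence, 8 rose and 4 fell (median log2 -0.01). Slc48a1, a heme transporter of the lysosome, rose from 109 ± 6.86 to 194 ± 19.0 CPM, glutathione peroxidase, Gpx1, from 549 ± 37.4 to 829.8 ± 78.6 CPM, and Ncf1, of the NADPH oxidase, from 90.0 ± 12.6 to 156 ± 25.8 CPM. Biliverdin reductase, Blvra, rose from 52.0 ± 6.33 to 71.8 ± 5.38 CPM. The heme oxygenase gene Hmox1, at 1114, 417 and 562 against 553, 283 and 333 CPM, was lower in each pair with overlapping libraries. Its call was lost without any 1 library except CD11c-negative number 3, with number 2 left out throughout, and without the block (adjusted p = 0.244). With number 3 left out of all populations 4 of the list rose.

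Of 31 macrophage transcription factors, 11 fell and 3 rose (median log2 -0.23). Bhlhe40, a repressor of the helix-loop-helix family, went from 127, 88.7 and 88.2 CPM to 247, 169.7 and 212 CPM (log2 1.05, SE 0.09, adjusted p = 9.38e-06). Library 1 was highest in both populations. Runx1, a factor of blood cell identity, fell from 385 ± 30.5 to 233 ± 17.1 CPM. Mitf, which drives lysosomal genes, rose from 152 ± 23.4 to 215 ± 27.1 CPM, and Id2, an inhibitor of helix-loop-helix factors, fell from 194 ± 47.5 to 119 ± 28.5 CPM. Neither was called without the block (adjusted p = 0.0531 and 0.102). Relatives of Mitf, Tfeb (51.9 and 46.7 CPM) and Tfec (12.8 and 10.8 CPM), were not called, nor was Spi1, which encodes PU.1 (274 and 275 CPM). With any single library left out, 5 to 8 fell, without the block 2, and with numbers 1, 2 or 3 left out 17, 6 and 4.

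Genes of the immediate early response, which are known to rise when tissue is digested, were lower in CD11c-positive macrophages. Of 20, 14 fell and 1 rose (median log2 -0.38). Ier3 went from 233, 115 and 143 CPM to 87.1, 51.4 and 58.1 CPM (log2 -1.30, SE 0.16, adjusted p = 0.000618), and Dusp2, a phosphatase, fell from 24.8 ± 6.55 to 13.4 ± 5.18 CPM. The heat shock gene Hspa1a was at 119 ± 30.6 and 74.3 ± 18.8 CPM, with overlapping libraries, and was not called without the block (adjusted p = 0.124). Hsph1, another heat shock gene, rose from 45.2 ± 8.98 to 89.7 ± 14.8 CPM. Without the block 4 of the 20 fell, and with number 2 or 3 left out of all populations 8 and 7. These genes moved in the same direction as those of NF-kappaB, and their part in that result was not tested.

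Markers of other cells were read in the same libraries. Of 14 endothelial genes, 8 were called higher in CD11c-positive macrophages and 0 lower (median log2 0.93). Their summed level was 123, 219.8 and 145 CPM in CD11c-negative libraries 1 to 3 and 282, 319 and 235 CPM in CD11c-positive ones. Flt1, a receptor for VEGF and 1 of those called, was at 17.1 ± 6.16 and 33.4 ± 4.47 CPM. Cdh5, of endothelial junctions, was at 29.1 and 55.4 CPM and was not called. With 1 of the 6 libraries left out 2 to 10 of the list were called, and without the block 0, Flt1 among those lost (adjusted p = 0.0682). Of 16 fibroblast genes 0 were higher and 6 lower, and their sums were 1866 ± 922 and 1370 ± 512 CPM in the CD11c-negative and CD11c-positive libraries. With any single library left out, 1 to 13 of these were lower, and without the block 0.

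Dendritic cell and monocyte genes were read next. Of 20 dendritic cell genes 3 fell and 0 rose, and they summed to 222 ± 17.3 and 182 ± 9.79 CPM, against 1068 ± 344 CPM in monocyte-derived cells. The defining genes Flt3 (0.541 and 1.02 CPM) and Xcr1 (5.04 and 3.13 CPM) were low in both populations. Of 20 monocyte genes 3 rose and 4 fell, shares of 15% and 20%, against 14.2% and 11.9% of all tested genes. The share of rises was near that over all genes, and the risen Ly6c1 is also among the endothelial genes called higher. F10, given above, is another risen member of the monocyte list. It was at 24.0 ± 4.75 CPM in CD11c-positive macrophages and at 27.7 ± 5.32 CPM in monocyte-derived cells. Without the block 1 monocyte gene rose and 1 fell, with number 1 left out of all populations 2 and 7, and with a single library left out 1 to 3 rose. Without the block 1 dendritic cell gene fell. The monocyte marker Ly6c2 was at 1.36 and 1.06 CPM. The B cell genes summed to 161 ± 17.2 and 93.3 ± 12.04 CPM, most of it Ighm (139.8 ± 10.2 to 78.4 ± 7.32 CPM), a fall not called with number 3 left out of all populations. T and NK cell genes summed to 9.24 and 8.02 CPM and adipocyte genes to 74.0 and 75.2 CPM. Those of mast cells and eosinophils ranged from 8.23 to 64.3 CPM in CD11c-negative and from 8.54 to 35.5 CPM in CD11c-positive libraries. Mesothelial genes summed to 22.0 and 15.1 CPM, neutrophil genes to 48.6 and 25.1 CPM, and erythroid genes to 2.11 and 2.04 CPM. The neutrophil sum was nearly all Csf3r, which fell from 48.1 ± 6.28 to 24.4 ± 4.79 CPM. In such sorts, fewer cells of a type and less RNA per cell cannot be told apart, and the part of these markers in the other results was not tested.

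Counts of several lists moved with the libraries fitted, as did the count of all calls. The 6 compared libraries alone called 4018 genes higher and 4014 lower of 18216 tested, against 2856 and 2392 of 20081 in the reported fit. That fit estimated the spread from 6 libraries and the reported one from 12, so the larger counts are no stronger support. In the 6 compared libraries alone, falls were called for 22 of the 31 transcription factors, 17 of the 27 inflammatory genes, 14 of the 23 chemokine ligands and 14 of the 25 growth factors. They were also called for 11 of the 23 efferocytosis and complement genes, 10 of the 26 interferon genes and 8 of the 27 iron and antioxidant genes, and rises for 10 of the 18 integrins. Without the block, 2 efferocytosis and complement genes, 4 growth factors and 1 iron and antioxidant gene fell, and 1 scavenger receptor and 5 iron and antioxidant genes rose. With number 3 left out of all populations, 2 chemoattractant receptors and 0 integrins fell. In all 21 libraries without the block, 7 of the 20 lipid-associated and 16 of the 29 cell cycle genes rose. There 12 of the 24 resident perivascular and 2 of the 20 immediate early genes fell.

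**Figure D3:**
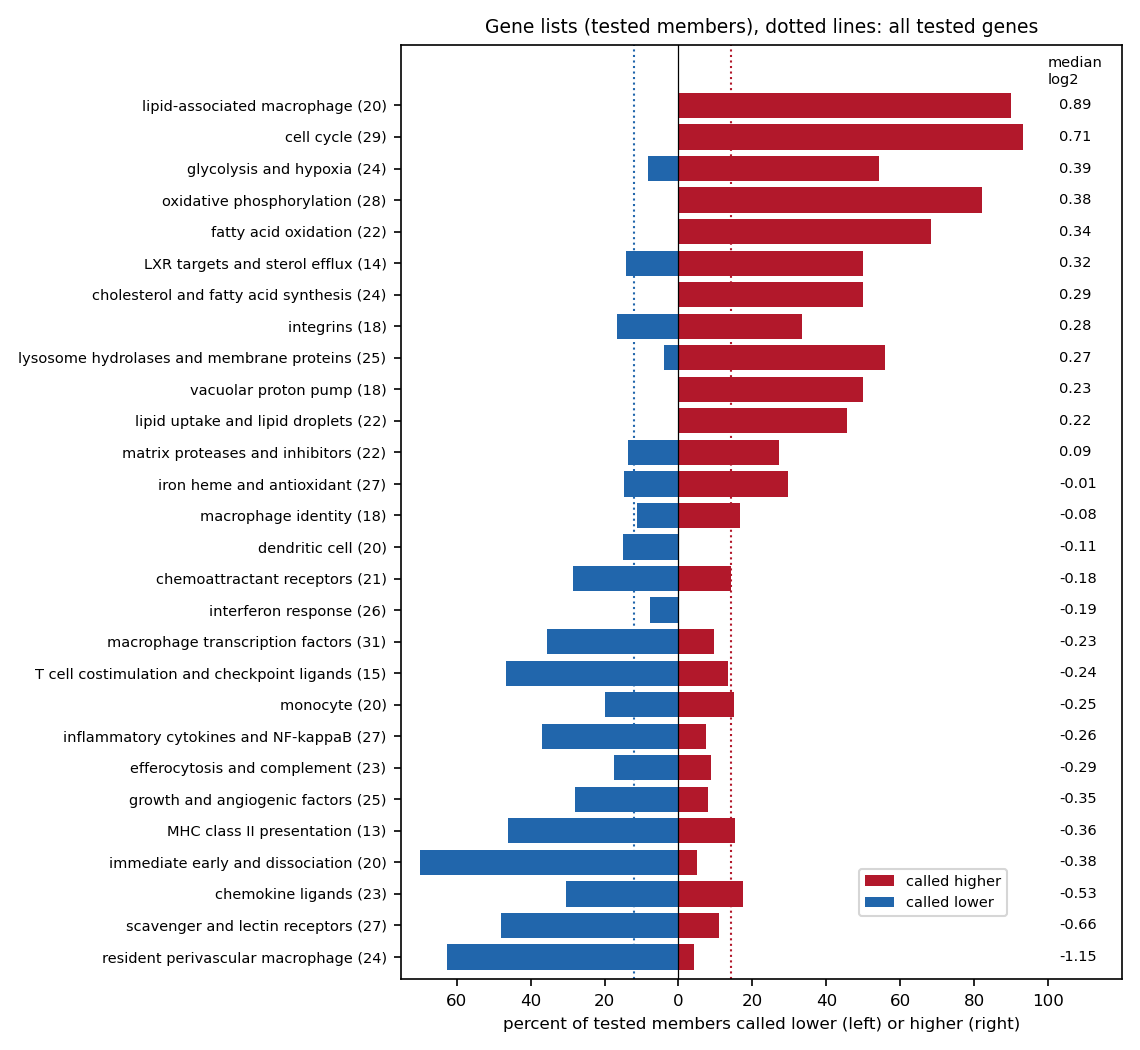
Share of the tested members of 28 gene lists (number in brackets) that was called higher (red, right) or lower (blue, left) in CD11c-positive macrophages, with the median log2 change at the right. Dotted lines mark the shares over all 20081 tested genes, 14.2% higher and 11.9% lower. Cell cycle (27 of 29) and lipid-associated genes (18 of 20) have the largest shares of rises, and immediate early (14 of 20) and resident perivascular genes (15 of 24) the largest shares of falls.

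The other obese populations place these levels. The comparisons share the 3 CD11c-positive libraries, so levels are given side by side. Of 20081 genes, 1665 (8.29%) were called higher in CD11c-positive macrophages than in each of the other 3 obese populations, and 1044 (5.2%) lower. In MHCII-low, CD11c-negative, CD11c-positive and monocyte-derived cells, F7 was at 5.25, 7.70, 62.5 and 14.1 CPM, in that order. Vsig8 had 8.54, 9.33, 88.8 and 8.86 CPM, and Gpnmb 525, 623, 2427 and 309 CPM, each highest in the CD11c-positive population. Other genes stepped down from MHCII-low macrophages. Lyve1 was at 407, 38.9, 7.07 and 2.87 CPM, Cd209f at 235, 22.8, 5.39 and 0.504 CPM and C4b at 1291, 237, 73.1 and 39.7 CPM. For Lyve1 and C4b the difference between CD11c-positive and monocyte-derived cells was not called (adjusted p = 0.0708 and 0.107, edgeR quasi-likelihood test). Of the 1251 called falls with at least 10 CPM, the mean of MHCII-low macrophages lay above both compared populations at 582, between them at 541 and below both at 128. Of the 2147 called rises, it lay below both at 985, between at 1082 and above both at 80. The mean of monocyte-derived cells lay below both at 1504 of the rises, between at 502 and above both at 141. At the 1251 falls it lay above both at 573, between at 351 and below both at 327. Bhlhe40 (71.9, 101, 209.6 and 568 CPM) and Dcstamp (3.24, 5.30, 26.3 and 42.7 CPM) were highest in monocyte-derived cells, as was Cd74 (1295, 7607, 4672 and 9891 CPM).

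**Figure D4:**
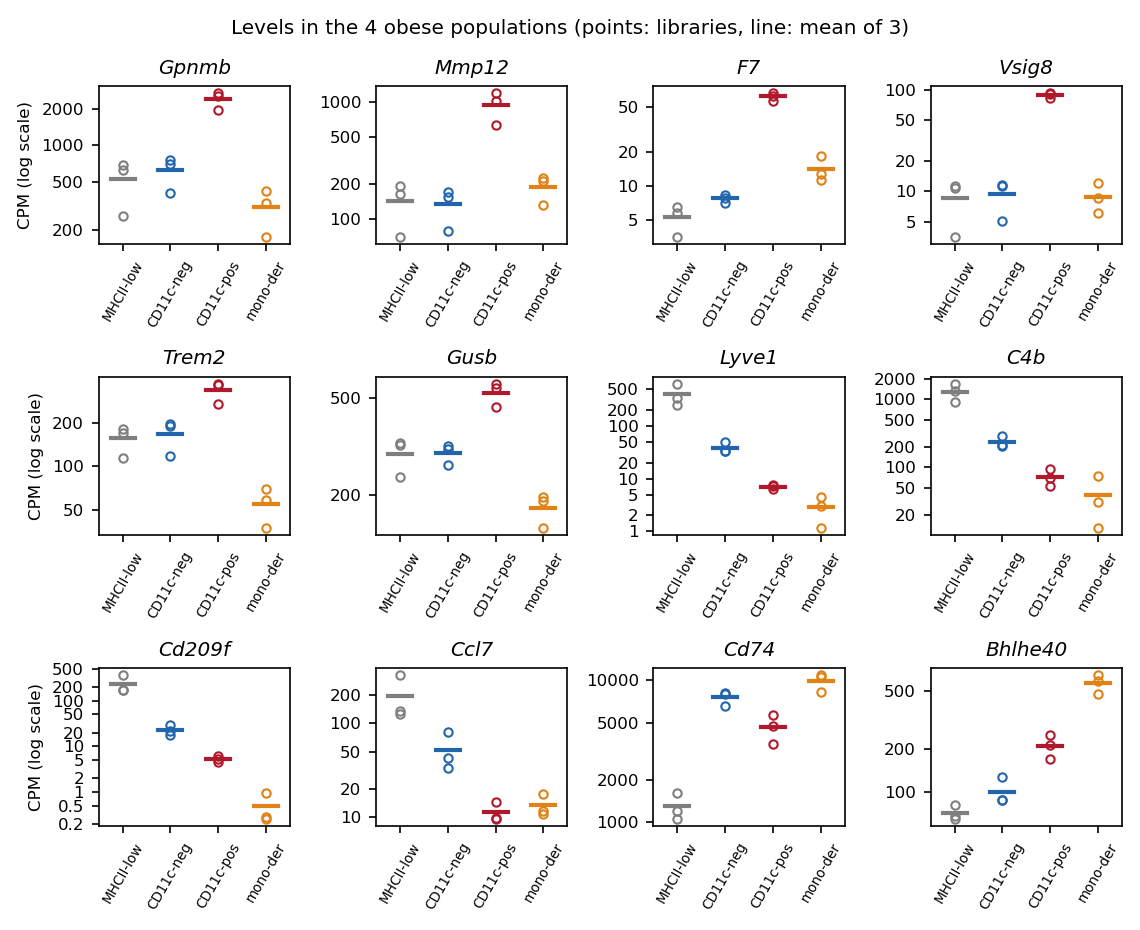
Levels (CPM, log scale) of 12 genes in the 3 libraries (points) and their mean (line) of obese MHCII-low, CD11c-negative, CD11c-positive and monocyte-derived cells. Gpnmb, Mmp12, F7, Vsig8 and Trem2 are highest in CD11c-positive macrophages. The means of Lyve1 and C4b step down from MHCII-low macrophages to monocyte-derived cells, with the last step not called for either gene.

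**Figure D5:**
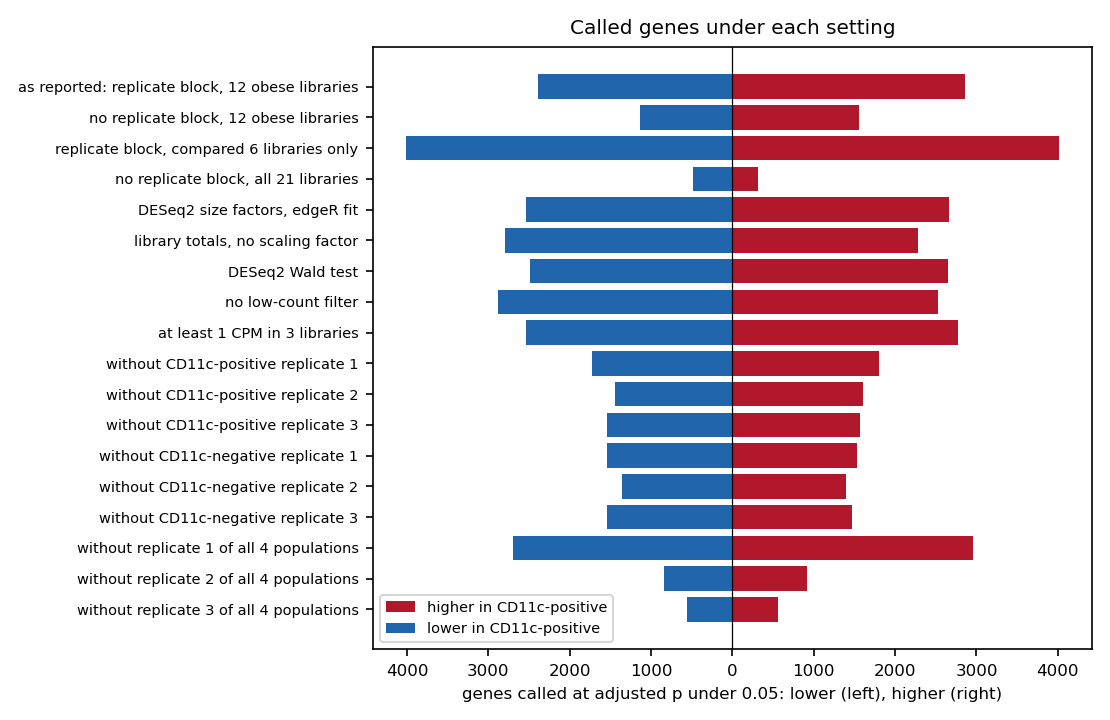
Number of genes called higher (red) and lower (blue) in CD11c-positive macrophages under the reported setting and 17 alternatives. The reported setting called 5248 genes, the 6 compared libraries alone called 8032, and the fit of all 21 libraries without the replicate block called 801.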

How the data were processed

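Bulk RNA-seq counts per gene of sorted adipose tissue macrophages and monocyte-derived cells were analysed. The counts were deposited by the authors as 1 table of 54532 genes and 21 libraries, unnormalised. The submitters' processing notes list, without roles or order, STAR 2.6.0a, featureCounts (Subread 1.4.6-p5), bcl2fastq, Trim Galore 0.4.5 and the build GRCm38. Whether strand was used in counting was not given, so reads of overlapping genes cannot be told apart. Gene types and positions are of GENCODE M21, in which 54495 gene identifiers were found without their version.

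The 12 obese libraries (20871699 to 35568948 counts) were fitted with edgeR 4.0.16 (R 4.3.3): filterByExpr, TMM scaling, robust quasi-likelihood test, group and replicate number as terms. The contrast CD11c-positive minus CD11c-negative was tested 2-sided, with Benjamini-Hochberg adjustment over 20081 genes, and called at an adjusted p under 0.05. The standard error is the log2 change divided by the square root of F. CPM levels are TMM-scaled, and sums over lists are of library totals. The fit was tested on simulated data.

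The numbers pair the samples by the data: deviations from the group mean correlated at 0.593 to 0.745 within the 3 compared pairs and at 0.153 to 0.745 over 18 pairs of equal number, against -0.674 to 0.197 over 36 pairs of unequal number (10343 genes). No label says what a number stands for.

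The rule for naming genes took 15 called rises and 15 called falls of largest size (at least 10 CPM, the same direction in each pair, no overlap, no predicted-gene name), up to 4 called members by smallest p of each of 28 lists, and 10 fixed genes. Some genes that the rule took are not reported here. Other list members named in the text as examples were chosen after their values were seen. Gene lists and rules were chosen with earlier results of these data known. Alternatives were no block, the 6 libraries alone, all 21 libraries, other scaling, DESeq2 1.42.0, other filters, and each library or number left out.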

Additional observations from a re-analysis of the deposited data

How the results depend on the processing

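The count of calls moved most with the replicate block and the libraries fitted. With the block 5248 genes were called, and without it 2681 (1550 higher and 1131 lower), with 851 higher and 456 lower than in each of the 3 other obese populations against 1665 and 1044 with the block. In the 6 compared libraries alone, with the block, 8032 genes were called, 4014 of them lower. In all 21 libraries without the block 801 were called (317 higher and 484 lower), with 189 and 212 set apart from each other population, and the share of calls that were higher was 39.6% against 54.4%. With 1 of the 6 compared libraries left out, the count ranged from 2750 to 3526, calls higher from 1391 to 1800, calls lower from 1359 to 1726, genes higher than in each other population from 935 to 1070 and genes lower from 660 to 776. With number 1, 2 or 3 left out of all 4 obese populations, the count was 5659, 1756 and 1108, calls higher were 2961, 915 and 555, calls lower 2698, 841 and 553, genes higher than in each other population 1670, 601 and 368, and genes lower 1023, 396 and 268. Scaling by library totals called 2276 higher and 2800 lower (44.8% higher), and without the filter on low counts 46.7% of calls were higher. DESeq2 called 2655 higher and 2483 lower. Of 129 called named genes, 69 lost the call under at least 1 of the 17 alternatives, 26 of them without the block, and 0 changed direction. The cause of these changes was not tested, beyond fewer samples where libraries are left out. The number of libraries, 3 in each population, limits the precision, and with 2 left the spread of the pair is pooled with that of the other populations.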

Other observations

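Of 1084 antisense transcripts tested, 199 (18.4%) were called lower and 8 (0.738%) higher (edgeR, adjusted p under 0.05), against 11.9% and 14.2% of all tested genes. They summed to 2850 ± 159 CPM in the CD11c-negative and 2087 ± 94.3 CPM in the CD11c-positive population (SD, n = 3). Of 660 lincRNAs, 106 (16.1%) were called lower and 14 (2.12%) higher, while their sums, 51320 ± 5522 and 53050 ± 7321 CPM, overlapped. Of 169 small nucleolar RNAs, 16 (9.47%) were called lower, a share under that over all tested genes, and 0 higher. Their median log2 change was -0.378. They summed to 181 ± 4.87 CPM in the CD11c-negative and 140.5 ± 6.98 CPM in the CD11c-positive population, and these sums did not overlap. Whether counting used strand is not known, so reads of an antisense transcript and of its partner cannot be told apart.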
